A study of Mus musculus with 6 samples.

Results

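The genes described here encode the catalytic ATPase of the INO80 chromatin remodelling complex and the subunits that belong to that complex: Ino80, Actr8, Actr5, Ino80c, Ino80b, Nfrkb, Mcrs1, Tfpt, Ino80d and Ino80e. They were found by an exact match of gene symbol, and all 10 matched 1 gene each among the 45792 genes counted. RNA of whole hearts from mouse embryos at embryonic day 13.5 was sequenced from 3 wild-type and 3 Tie2Cre INO80 flox/flox hearts, given as biological replicates and called control-labelled and mutant-labelled below. The sample labels give the strain C57BL/6, and the study's methods describe its transgenic mice as of mixed background. Tie2Cre drives recombination in endothelial cells, including the endocardium that lines the heart chambers, and in blood cells, and it is not known to act in cardiomyocytes. The study elsewhere classes every genotype other than Tie2Cre;Ino80 fl/fl as a control, so the control-labelled hearts may carry a floxed allele or the Cre transgene. Gene counts summed to 30549842 to 37424689 per control-labelled heart and 28948836 to 89675692 per mutant-labelled heart, with the largest total in mutant-labelled replicate 1.

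INO80 uses the energy of ATP to slide nucleosomes along DNA and to edit their histone content, and it acts in transcription, replication and repair. The Ino80 ATPase is the scaffold on which the other subunits assemble: an actin and Arp8 module that reads the DNA beside the nucleosome, an Arp5 module that grips the nucleosome itself, and an N-terminal module found in animals but not in yeast. In mammals the complex is needed for early development, and in these hearts the gene of its ATPase was the one targeted.

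All 10 subunit genes were expressed in every heart, and none separated the groups after correction for multiple tests. In edgeR's quasi-likelihood test, with p-values adjusted over all 17125 genes by the Benjamini-Hochberg method, 0 of the 10 members passed an adjusted p of 0.05, beside 0% of all tested genes, and the members' adjusted p ran from 0.24 to 0.96. DESeq2 also called 0 of the 10, where it called 6.1% of all genes that it tested. At an unadjusted p under 0.05, edgeR placed 1 member, Actr5, higher in mutant-labelled hearts beside 9.48% of all genes, and 0 members lower beside 9.98%, while DESeq2 placed 0 members on that side of the threshold. Both directions together, 19.5% of all tested genes passed that threshold in edgeR, and 18.7% of the same genes did so in DESeq2. The log2 fold changes, mutant-labelled over control-labelled, were positive for 7 members and negative for 3, with a median of 0.10 and a range from -0.02 to 0.30. Over all tested genes 49.7% were positive and the median was -0.00. The 95% confidence intervals of the 10 members lay between -0.29 and 0.58 on the log2 scale, so that a 2-fold change in either direction was outside each of them.

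**Figure D1:**
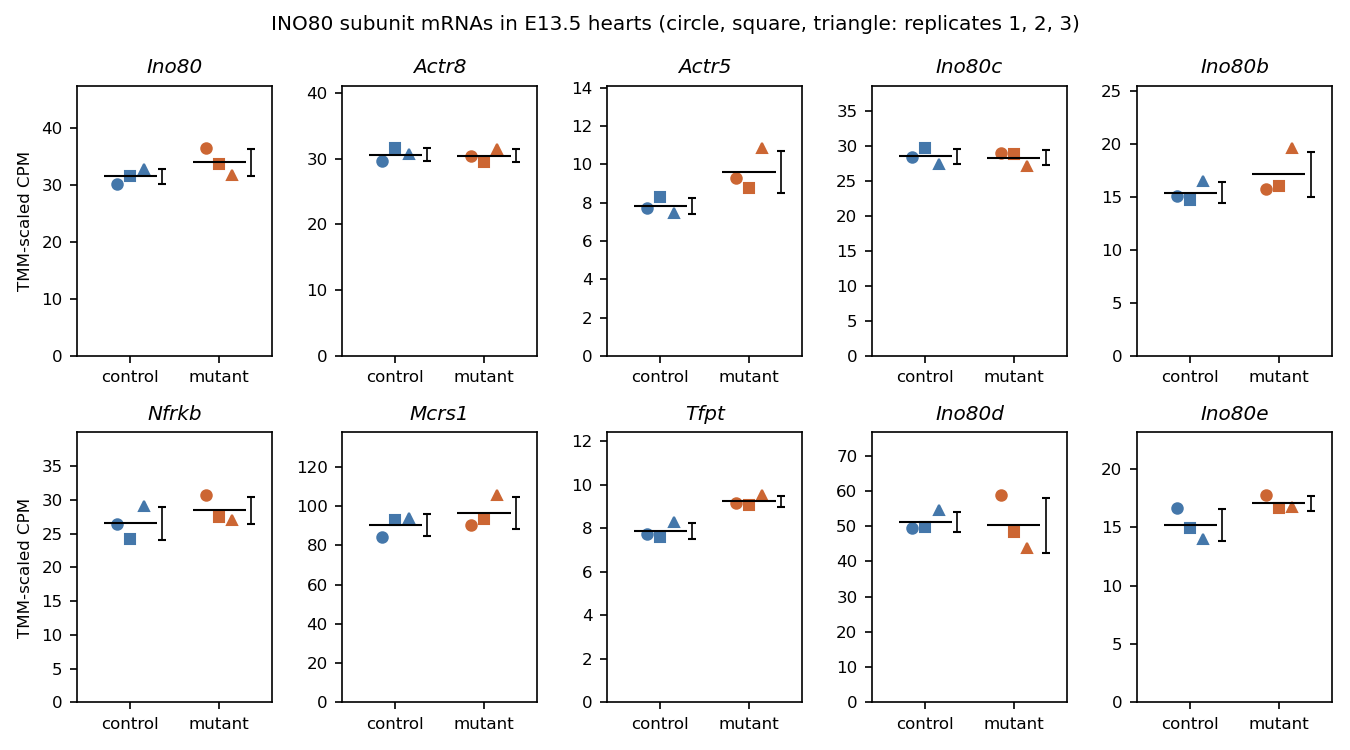
TMM-scaled counts per M counts (CPM) of the 10 INO80 subunit genes in each of the 3 control-labelled and 3 mutant-labelled hearts, 1 panel per gene, with the mean and SD of each group. The groups overlap for 8 genes, and for Actr5 and Tfpt all 3 mutant-labelled hearts lie above all 3 control-labelled hearts.

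Ino80, the ATPase, is the targeted gene and was examined first. It measured 30.2, 31.6 and 32.7 CPM, that is, counts relative to the TMM-scaled library total, in control-labelled replicates 1, 2 and 3 and 36.5, 33.7 and 31.8 CPM in mutant-labelled replicates 1, 2 and 3. Mutant-labelled replicate 3 fell inside the control range and the other two lay above it, so no mutant-labelled heart was below the controls. The means were 31.5 ± 1.26 and 34.0 ± 2.35 CPM (SD, n = 3 per group). The log2 fold change was 0.11 with a standard error of 0.08 and an adjusted p of 0.47 in edgeR's quasi-likelihood test. Its 95% confidence interval, -0.08 to 0.30 on the log2 scale, corresponds to a change in level from -5.30% to 22.9%. The gene count therefore does not separate the 2 genotypes that the labels give. By quantitative PCR, the study reports undetectable Ino80 mRNA in endothelial cells isolated from mutant hearts of a later stage. The values here are from whole hearts, which also hold other cells. In a whole heart, fewer cells with a transcript and less of it per cell cannot be told apart.

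The count of the whole gene holds little information on the deleted stretch. The floxed allele flanks exon 6, and the study names no transcript for that number. In the annotated transcript with the longest coding sequence, which has 36 exons, exon 6 lies at chr2:119451330-119451450 on the reverse strand of GRCm38, is 121 bases long and is coding throughout. It is shown because it is the part of the gene that Cre removes, written 5′ to 3′ on the strand of the gene and all in lower case.
Ino80 exon 6: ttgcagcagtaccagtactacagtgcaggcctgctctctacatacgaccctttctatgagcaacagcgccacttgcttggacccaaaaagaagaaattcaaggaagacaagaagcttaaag
The forward Ino80 primer of the study's quantitative PCR lies within these bases, which are 1.90% of that transcript's 6354 bases. If they were lost from every transcript and the rest were counted as before, the log2 level would shift by -0.03, which is smaller than the standard error of 0.08. Their number leaves a remainder of 1 when divided by 3. Joined from exon 5 to exon 7, the annotated sequence reads 181 codons of the original frame and 2 changed ones, 183 in all, before a stop, where the full frame has 1559 codons. Reads over exon 6 were not analysed here, since the deposited counts are sums over whole genes.

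Actr8 encodes the actin-related protein of the Arp8 module, which binds the DNA that leads away from the nucleosome. Its 3 control-labelled hearts measured 29.7, 31.6 and 30.7 CPM and its 3 mutant-labelled hearts 30.4, 29.5 and 31.5 CPM, an overlap over nearly the whole range. The log2 fold change was -0.01, with a 95% confidence interval from -0.18 to 0.16, and the adjusted p was 0.96 in edgeR's quasi-likelihood test. The gene lies on chromosome 14 at 29978337 to 30006354, on the forward strand, and shares 141 exon bases with Il17rb, which had 2 to 16 counts per heart.

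Actr5 encodes the actin-related protein of the Arp5 module, which couples ATP hydrolysis to nucleosome movement. It was at 7.70, 8.27 and 7.47 CPM in control-labelled replicates 1, 2 and 3 and at 9.27, 8.74 and 10.8 CPM in mutant-labelled replicates 1, 2 and 3. The groups did not overlap, and the highest value came from mutant-labelled replicate 3. The means were 7.81 ± 0.41 and 9.62 ± 1.09 CPM (SD, n = 3 per group). The log2 fold change was 0.30 with a standard error of 0.12, the largest of the 10 in size. In edgeR's quasi-likelihood test the unadjusted p was 0.041 and the Benjamini-Hochberg adjusted p 0.24, and in DESeq2 these were 0.054 and 0.27. Without mutant-labelled replicate 3 the log2 fold change was 0.21 and the unadjusted p in edgeR 0.14. The gene lies on chromosome 2 at 158624888 to 158639211, on the forward strand.

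Ino80c, the partner of Actr5 in the Arp5 module, gave another picture. Its values were 28.5, 29.7 and 27.5 CPM in control-labelled and 29.0, 28.9 and 27.2 CPM in mutant-labelled hearts, with both groups over the same range. The log2 fold change was -0.01, with an interval from -0.18 to 0.16, beside 0.02 to 0.58 for Actr5. The difference between the 2 genes of the module was not tested.

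Ino80b, the mammalian counterpart of yeast Ies2, binds the ATPase and stimulates its activity. It stood at 15.1, 14.7 and 16.5 CPM in control-labelled and 15.8, 16.0 and 19.6 CPM in mutant-labelled hearts. Only mutant-labelled replicate 3 lay outside the control range. Its log2 fold change was 0.15 with a standard error of 0.11 (edgeR, adjusted p = 0.48), and without mutant-labelled replicate 3 it was 0.048. The gene lies on chromosome 6 at 83121765 to 83125431, on the reverse strand.

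The other 5 members belong to the N-terminal module, which in animals links the complex to other regulators. Their log2 fold changes were positive for 4 and negative for 1, with a median of 0.10, and 0 of the 5 passed an unadjusted p of 0.05 in edgeR or in DESeq2, beside 19.5% and 18.7% of all tested genes. Tfpt, first known as a fusion partner of the E2A transcription factor gene in childhood leukaemia, was the one among them whose groups did not overlap. It measured 7.75, 7.59 and 8.30 CPM in control-labelled and 9.15, 9.05 and 9.54 CPM in mutant-labelled hearts. The means were 7.88 ± 0.37 and 9.25 ± 0.26 CPM (SD, n = 3 per group), a log2 difference of 0.23 with a standard error of 0.10. In edgeR's quasi-likelihood test the unadjusted p was 0.058 and the adjusted p 0.27. Tfpt also has the fewest reads of the members, with 223 counts in control-labelled replicate 2.

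Nfrkb encodes a nuclear factor that regulates the deubiquitinase Uchl5 within the complex. Its values were 26.4, 24.2 and 29.1 CPM in control-labelled and 30.8, 27.5 and 27.0 CPM in mutant-labelled hearts, so that 2 of the 3 mutant-labelled hearts were inside the control range. Mcrs1, a scaffold protein that INO80 shares with the NSL histone acetyltransferase complex, measured 84.0, 92.9 and 94.0 CPM and 90.4, 93.4 and 105.7 CPM. Here too 2 mutant-labelled hearts lay within the control range and replicate 3 above it. The log2 fold changes were 0.10 for Nfrkb and 0.09 for Mcrs1, with adjusted p of 0.58 and 0.54 in edgeR's quasi-likelihood test. Leaving out 1 heart moved Nfrkb to between 0.039 and 0.17, and Mcrs1 to between 0.030 and 0.14.

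Ino80e, a small subunit of the module, measured 16.7, 14.9 and 14.0 CPM in control-labelled and 17.8, 16.6 and 16.7 CPM in mutant-labelled hearts. Control-labelled replicate 1 lay above mutant-labelled replicate 2, and the other 2 control-labelled hearts lay below all mutant-labelled ones. This gave a log2 fold change of 0.17 (edgeR, adjusted p = 0.37). Ino80d had a wide spread among mutant-labelled hearts, with an SD of 7.79 CPM about a mean of 50.3 CPM. It stood at 49.4, 49.7 and 54.5 CPM in control-labelled and 58.9, 48.3 and 43.7 CPM in mutant-labelled hearts, which thus held both the highest and the lowest of its values. Its log2 fold change was -0.02 and the interval ran from -0.29 to 0.24.

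Actr5 and Tfpt were the 2 of 10 members with all mutant-labelled hearts above all control-labelled ones, beside 14.3% of all tested genes. In 0 members did the mutant-labelled hearts lie below, beside 12.8% of all genes. The mean of log2(CPM + 1) over the 10 members was 4.60, 4.61 and 4.65 in control-labelled and 4.75, 4.68 and 4.74 in mutant-labelled hearts, a description without a test. The spread of the members was small: the SD of log2(CPM + 1) over the 6 hearts had a median of 0.12 over members and 0.15 over all tested genes. The median standard error of their log2 fold changes was 0.10, and it was 0.13 over all tested genes. The members' median level was 28.0 CPM, beside 17.0 CPM over all tested genes, and the part of level in these spreads was not tested.

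**Figure D2:**
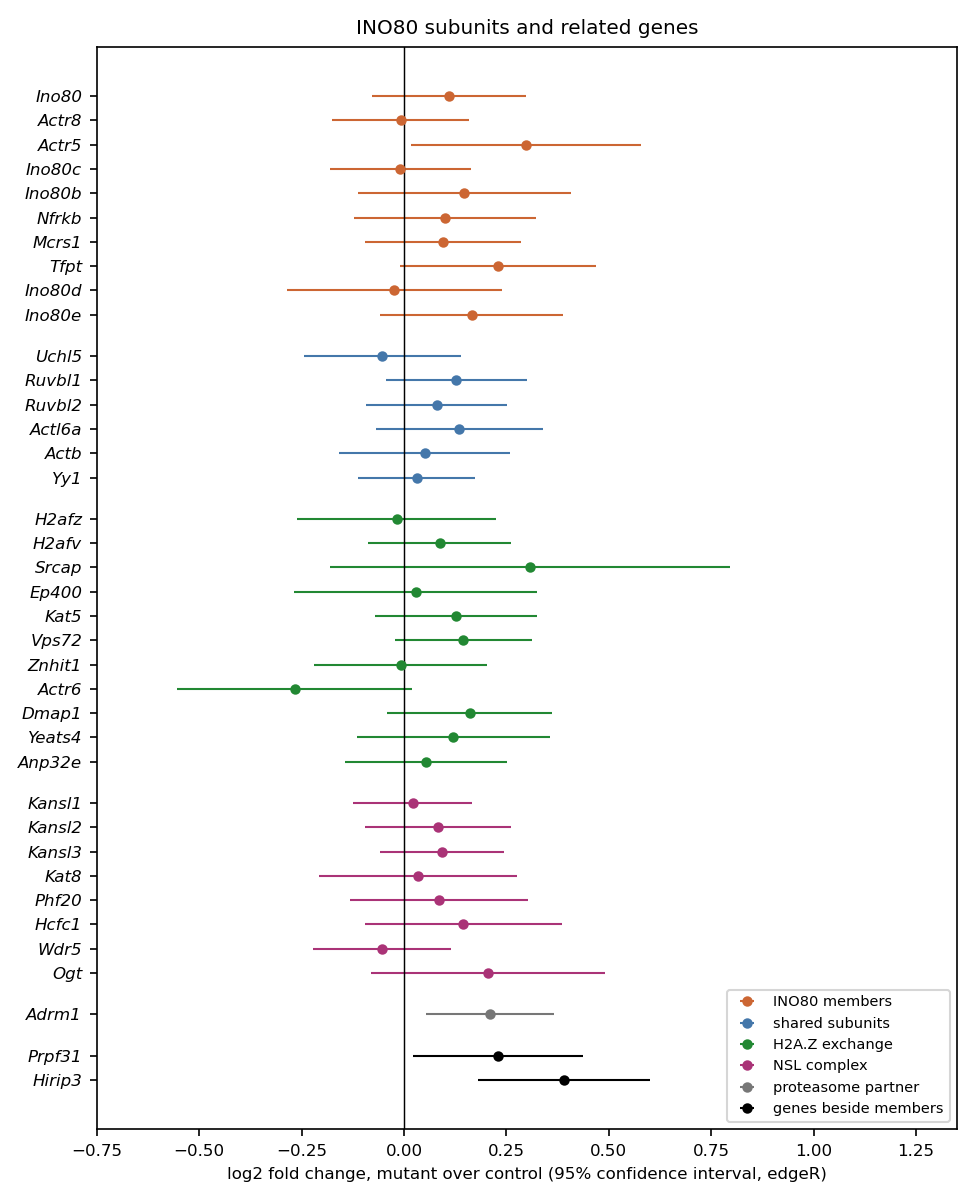
Log2 fold change, mutant-labelled over control-labelled, with its 95% confidence interval from edgeR, for the 10 INO80 members, the subunits shared with other complexes, the genes of H2A.Z exchange, the NSL complex, the proteasome partner Adrm1 and the genes that start beside Tfpt and Ino80e. Among the members the interval of Actr5 alone leaves out 0, and those of Adrm1, Prpf31 and Hirip3 do so among the other genes.

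Subunit genes differed far more from one another than between the groups. On the scale of CPM per kilobase of the union of a gene's exons, averaged over all 6 hearts, Mcrs1 had the highest level, 26.6 ± 2.01 (SD, n = 6). Ino80b with 10.2 ± 1.10 and Ino80c with 10.1 ± 0.34 followed, and their values overlapped. Tfpt at 7.13 ± 0.67 and Ino80 at 4.81 ± 0.32 were each apart from both of their neighbours in the order. The lowest 5 were Actr8 at 3.39, Ino80d at 2.87, Nfrkb at 2.44, Ino80e at 2.11 and Actr5 at 2.08, and each overlapped the next one in the order. The highest level was 12.8 times the lowest.

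The order depended in part on which length was used. Divided by the longest annotated transcript in place of the union of exons, Mcrs1 remained highest, at 48.7 CPM per kilobase, and Actr5 lowest, at 2.93. Actr8 moved from 3.39 to 7.64, above Ino80 and with values that overlapped those of Tfpt, and Nfrkb from 2.44 to 5.09, beside Ino80 at 5.15. Mcrs1 was the highest member in each of the 6 hearts with both lengths. Lengths came from a later release of the annotation than the one the reads were counted on, and messenger RNA level says nothing of the ratio of the proteins in the complex.

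**Figure D3:**
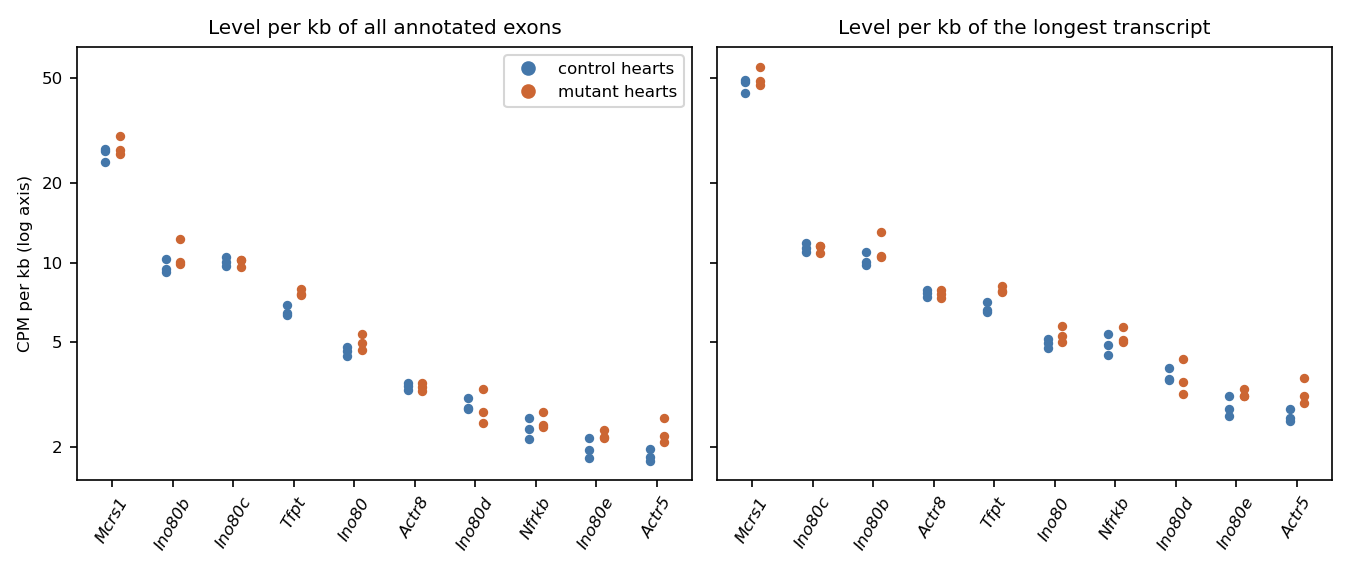
CPM per kilobase on a log axis for the 10 INO80 members in each heart. Gene length is the union of exons on the left and the longest transcript on the right, each in the order of its own means. Mcrs1 stands apart with a mean of 26.6 on the left and 48.7 on the right. On the left, the means of the 5 genes from Actr8 to Actr5 lie between 3.39 and 2.08.

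Which heart was highest differed with the gene. Mutant-labelled replicate 1 had the highest value of the 6 for Ino80, Nfrkb, Ino80d and Ino80e, mutant-labelled replicate 3 for Actr5, Ino80b, Mcrs1 and Tfpt, and control-labelled replicate 2 for Actr8 and Ino80c. The first 4 of these genes have the 4 longest transcripts of the members, from 5328 to 13675 bases. The difference in log2(CPM + 1) between mutant-labelled replicates 1 and 3 was 0.42 for Ino80d, 0.19 for Ino80, 0.18 for Nfrkb and 0.08 for Ino80e, and it was -0.05 for Actr8 and Tfpt, -0.21 for Actr5, -0.22 for Mcrs1 and -0.30 for Ino80b. Ino80c, with 2498 bases, stood at 0.09, and Tfpt has the shortest transcript, 1166 bases, so the members do not follow the order of length throughout. Over all tested genes, divided into 5 equal bins by transcript length, the median of the same difference went from -0.17 in the shortest bin to 0.12 in the longest. The part of transcript length in the members' values was not tested.

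**Figure D4:**
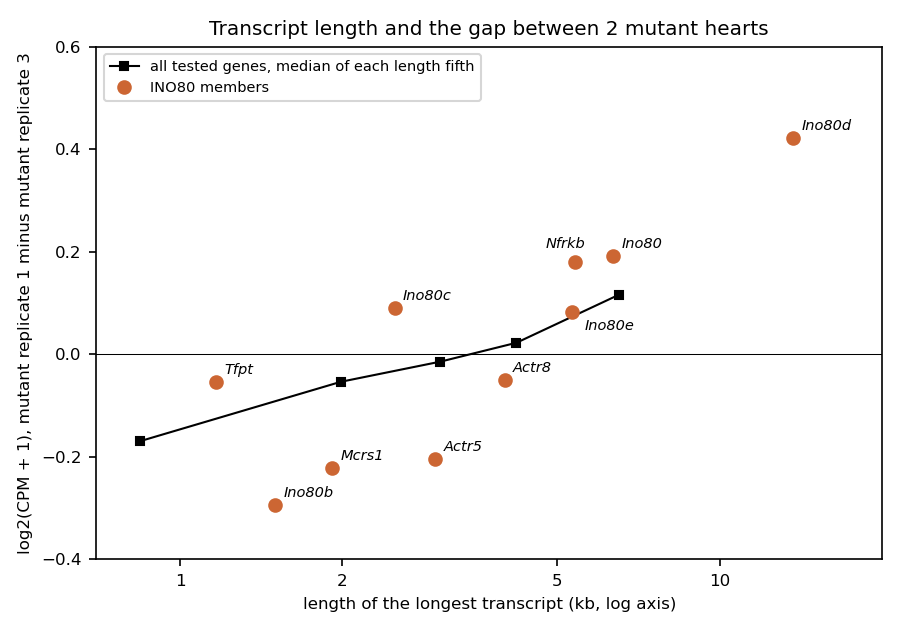
Difference in log2(CPM + 1) between mutant-labelled replicates 1 and 3 against the length of the longest transcript on a log axis, with each INO80 member as a point and the median of all tested genes in each of 5 length bins as a line. The line climbs from -0.17 to 0.12, and the members run from -0.30 for Ino80b to 0.42 for Ino80d.

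The comparison of the groups was also described in the same bins. The median log2 fold change, mutant-labelled over control-labelled, was -0.12 in the bin of the shortest transcripts, which holds Tfpt, and 0.02 in the bin that holds Actr5. Tfpt stood at 0.23 and Actr5 at 0.30. Ino80, Ino80b, Nfrkb, Mcrs1 and Ino80e also lay above the medians of their bins, and Actr8, Ino80c and Ino80d lay below theirs. The part of transcript length in these fold changes was not tested.

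Some members share their place in the genome with another gene, and whether the counting used strand is not given in the sources used here, so that reads in shared exon bases cannot be told apart. Tfpt lies on chromosome 7 at 3620324 to 3629929 on the reverse strand and shares 4 exon bases with Ndufa3 on the forward strand. Ndufa3 was at 57.6, 76.8 and 65.0 CPM in control-labelled and 65.3, 69.9 and 64.1 CPM in mutant-labelled hearts. Its groups overlapped, with a log2 fold change of 0.00047 and an unadjusted p of 0.997 in edgeR's quasi-likelihood test. The start of Prpf31, a splicing factor gene on the forward strand, is 56 bases from that of Tfpt. Prpf31 was at 31.3, 29.7 and 31.5 CPM in control-labelled and 32.3, 37.2 and 39.1 CPM in mutant-labelled hearts, with no overlap of the groups. Over all tested genes, 14.3% had every mutant-labelled heart above. Its log2 fold change was 0.23, as for Tfpt, with an unadjusted p of 0.034 and an adjusted p of 0.22 in edgeR's quasi-likelihood test. Whether Prpf31 and Tfpt change together, or through the stretch between them, was not tested. The exons of Prpf31 and Tfpt do not meet. The stretch between both starts, chr7:3629930-3629984 on GRCm38, is shown as the one DNA segment that lies upstream of both genes, on the strand of Tfpt from RefSeq's promoter of that gene, with capitals on the reverse complement of the CCAAT box word CCAATC.
Tfpt and Prpf31: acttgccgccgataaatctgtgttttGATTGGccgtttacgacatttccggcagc
The word CCAATC, searched on both strands in the 300 bases around each start, was in the promoters of 3 of the 6 members that RefSeq's table holds, Ino80, Tfpt and Ino80e, beside 18.2% of the 27025 genes in that table. The ETS word CCGGAAGT was found for Ino80b and Mcrs1, beside 4.31% of all genes, and the YY1 word AAGATGGC for Ino80b, beside 3.19%. The E2F words TTTCGCGC and TTTGGCGC were found for 0 of the 6 members and for 0.929% of all genes, and the NRF1 word GCATGCGC for 0 and for 3.05%. The members' promoters are richer in CpG, with a median of 23 CpG against 7 over all promoters, and the part of base composition in these counts was not tested. A word match is no evidence of binding.

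Ino80e lies on chromosome 7 at 126850960 to 126862377, on the reverse strand, and shares 150 exon bases with Hirip3, a gene for a partner of the histone chaperone HIRA. Hirip3 was at 31.9, 28.2 and 27.4 CPM in control-labelled and 35.8, 38.0 and 41.1 CPM in mutant-labelled hearts, so that the groups did not overlap. With a log2 fold change of 0.39 and a standard error of 0.09, it had an adjusted p of 0.10 in edgeR's quasi-likelihood test, and in DESeq2 its adjusted p of 0.015 passed the threshold. Ino80e shares a further 1103 exon bases with Doc2a, a gene with at most 2 counts in any heart. The value of Ino80e, 0.17, is uncertain to the extent of the shared bases.

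Ino80d lies on chromosome 1 at 62958418 to 63114667, on the reverse strand, and its antisense gene Ino80dos shares 431 exon bases with it. Ino80dos measured 1.73, 1.12 and 1.08 CPM in control-labelled and 2.16, 2.16 and 1.81 CPM in mutant-labelled hearts, without overlap. It had a log2 fold change of 0.64 and an adjusted p of 0.23 in edgeR's quasi-likelihood test. Mcrs1, on chromosome 15 at 99242817 to 99251961, shares 174 exon bases with the opposite-strand gene 1700120C14Rik. That gene measured 2.26, 3.78 and 2.72 CPM in control-labelled and 1.72, 1.83 and 2.09 CPM in mutant-labelled hearts, all of the latter below the former. Its log2 fold change was -0.64 and its adjusted p 0.20 in edgeR's quasi-likelihood test.

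Subunits that INO80 shares with other complexes showed differences as small as those of the members. They are the helicase-like ATPases Ruvbl1 and Ruvbl2, the actin-related Actl6a, actin itself (Actb), the transcription factor Yy1 and the deubiquitinase Uchl5. Of these 6 genes, 0 passed an unadjusted p of 0.05 in edgeR or DESeq2, beside 19.5% and 18.7% of all tested genes. The log2 fold changes were positive for 5 and negative for 1, and the median was 0.07. Ruvbl1 was the 1 gene of the 6 with every mutant-labelled heart above the controls, beside 14.3% of all tested genes, at 35.3, 33.9 and 36.7 CPM in control-labelled and 37.0, 38.4 and 40.3 CPM in mutant-labelled hearts. This is a log2 fold change of 0.13 (edgeR, adjusted p = 0.37).

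INO80 is known for its part in the turnover of the histone variant H2A.Z, and the genes of that process were read from the same fit. Of the 11, which hold the variant's own 2 genes, its loaders and its remover Anp32e, 0 passed an unadjusted p of 0.05 in edgeR or DESeq2, beside the same 19.5% and 18.7%. The log2 fold changes were positive for 8 and negative for 3, with a median of 0.09. H2afz and H2afv, the genes of the variant, had values of -0.02 and 0.09. Vps72, a chaperone of H2A.Z, measured 40.9, 43.6 and 43.6 CPM in control-labelled and 45.4, 46.8 and 49.4 CPM in mutant-labelled hearts. Actr6, a subunit of the SRCAP remodeller that loads H2A.Z, measured 17.0, 21.2 and 15.4 CPM and 14.7, 14.9 and 14.8 CPM. These 2 genes were the ones whose groups did not overlap, Vps72 higher in mutant-labelled hearts with a log2 fold change of 0.15 and Actr6 lower with -0.27. Beside them, 14.3% of all tested genes had every mutant-labelled heart above and 12.8% every one below. Their adjusted p in edgeR's quasi-likelihood test were 0.31 and 0.28.

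The tissue label was checked on lists of marker genes, and cell makeup is given because it can move with any value above. All 8 cardiomyocyte markers were detected in each group and summed to 17641 to 21786 CPM in control-labelled and 18280 to 19093 CPM in mutant-labelled hearts. The 8 endothelial markers, from the cells in which Cre acts, summed to 829.0 to 1039 CPM and 926.6 to 979.1 CPM. Erythroid markers varied most, with a sum of 9247 to 39347 CPM in control-labelled and 6336 to 11310 CPM in mutant-labelled hearts, and 5 of the 7 had an unadjusted p under 0.05 in edgeR and were lower in mutant-labelled hearts, and 1, the embryonic globin gene Hbb-y, was higher. The 5 epicardial markers summed to 149.3 to 152.7 CPM and 159.5 to 178.9 CPM, with no overlap. Of the 5, only Upk3b had an unadjusted p under 0.05 in edgeR, beside 9.48% of all tested genes higher at that threshold. Its log2 fold change was 0.57, while 2 others were positive, 2 negative and the median over the 5 was 0.0046. The sums of the 6 macrophage and leukocyte markers, 39.2 to 52.9 and 47.8 to 48.6 CPM, and of the 4 smooth muscle markers, 1259 to 1449 and 1195 to 1416 CPM, overlapped between the groups. Single markers within overlapping sums passed in DESeq2 at an adjusted p of 0.05, beside 6.1% of all genes that it tested. Myh6, Myl7 and, of smooth muscle, Cnn1 were higher in every mutant-labelled heart, and endothelial Esam was lower in every one. Myh11, of smooth muscle, also passed and was lower, with a log2 fold change of -2.40 in edgeR, but its groups overlapped. Of the macrophage and leukocyte markers C1qb and Ptprc had an unadjusted p under 0.05 in edgeR and lay below the controls in every mutant-labelled heart. Over all tested genes, 9.98% were lower at that threshold and 12.8% lay below in every mutant-labelled heart. Each of the 4 liver and 2 lung markers stayed under 1 CPM in every heart, and the lung marker Nkx2-1 was at 0. The part of cell makeup in the members' values was not tested.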

How the data were processed

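Whole-heart RNA was sequenced by the authors as 76 bp paired-end reads, aligned by the authors with STAR 2.4.2a (GRCm38, GENCODE vM6) and counted per gene with summarizeOverlaps. The deposited counts are raw whole numbers. The overlap mode and the strand setting are not given in the sources used here. From the other deposited table, which holds DESeq2 results of the authors' comparison, gene symbols alone were used. Columns were matched to hearts by title.

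Counts were analysed with edgeR 4.0.16 in R 4.3.3. The filter filterByExpr, with a minimum count of 10 and a minimum total of 15, left 17125 genes, which were scaled by TMM and fitted by quasi-likelihood with genotype as the only term. The threshold was an adjusted p of 0.05 (Benjamini-Hochberg over all tested genes). DESeq2 1.42.0, other filters, another scaling, thinned counts and fits without each heart were alternatives. Gene models came from GENCODE vM21, in which 45229 of the 45792 identifiers have a match, and promoters from RefSeq (GRCm38.p6). The members, related lists and markers were chosen with earlier results of these data known. Named genes were all members, those lists, and some of the genes that overlap a member or start within 1000 bases of one. No 2 hearts of a group differed by as little as sampling noise. With 3 hearts per group, p-values set the difference of the groups against the variation between hearts. In edgeR that variation is estimated with information shared over genes.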

Additional observations from a re-analysis of the deposited data

How the results depend on the processing

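The count of all genes called at an adjusted p of 0.05 was 0 in edgeR's quasi-likelihood fit (3333 at an unadjusted p under 0.05). The smallest adjusted p over all genes in that fit was 0.053, just above the threshold. The count depended on the processing. It was 1013 in DESeq2, 603 with all genes of at least 1 count, 1 with at least 10 counts in every heart and 2 with counts thinned to the smallest total. When 1 heart was left out it was 0 to 751, with 751 without control-labelled replicate 1 and 3 without control-labelled replicate 2. The cause was not tested. In none of these was a member called. The count of members at an unadjusted p under 0.05, 1 for Actr5, was 0 in DESeq2 and 0 to 1 over the fits without 1 heart. It was 0 without control-labelled replicate 3, mutant-labelled replicate 1 or mutant-labelled replicate 3, and without control-labelled replicate 1 the member counted was Ino80e (log2 fold change 0.24, unadjusted p 0.046), not Actr5. Over 12 alternatives Actr5 kept a log2 fold change of 0.21 to 0.36 with an adjusted p of 0.23 to 0.43, Tfpt 0.21 to 0.27 with 0.27 to 0.44, and Ino80 0.06 to 0.16 with 0.40 to 0.80. When 1 heart was left out, Ino80b ranged from 0.048 without mutant-labelled replicate 3 to 0.21 without mutant-labelled replicate 1, Mcrs1 from 0.030 to 0.14 without the same hearts, and Nfrkb from 0.039 without mutant-labelled replicate 1 to 0.17 without control-labelled replicate 3. Nfrkb was at 0.040 without control-labelled replicate 2 and Mcrs1 at 0.046 without control-labelled replicate 1. Ino80 was at its lowest, 0.06, without mutant-labelled replicate 1, and Ino80e was at 0.11 without control-labelled replicate 3. The median over members was 0.09 to 0.13 when 1 heart was left out. The H2A.Z exchange genes at an unadjusted p under 0.05 numbered 0 to 2 in those fits, and the shared subunits 0. The 2 came without control-labelled replicate 3 and were Srcap, higher, and Actr6, lower. With all hearts Srcap had the largest log2 fold change of its list, 0.31, and its groups overlapped. The share of all genes at that threshold in those fits is not given here. Near 0, signs turned: Actr8 was at 0.00047 with all genes of at least 1 count and at -0.031 to 0.016 when 1 heart was left out, Ino80c at -0.035 to 0.025 and Ino80d at -0.15 to 0.072. Genes with few counts limit the precision, and intervals reflect 3 hearts a group.

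The titles give both groups replicate numbers 1 to 3. Same-numbered hearts did not deviate together, with correlations of 0.02, -0.08 and -0.07. With so few hearts per group, these values cannot decide whether the numbers pair the hearts by litter or batch. The study states that it used littermates as controls for its experimental animals, and the sample labels name no litter. With the replicate block, 14 genes were called in edgeR at an adjusted p of 0.05, and no member was among them. At an unadjusted p under 0.05 it counted 0 members, and the share of all genes at that threshold in this fit is not given here.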

Other observations

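Mcrs1 and Uchl5 also serve outside INO80, and their partners there were read from the same fit. Of 8 genes of the NSL complex, the histone acetyltransferase assembly that holds Mcrs1, 7 had a positive log2 fold change and 1 a negative one, with a median of 0.08, and 0 passed an unadjusted p of 0.05 in edgeR or DESeq2, beside 19.5% and 18.7% of all tested genes. Ogt, which encodes the enzyme that attaches O-linked N-acetylglucosamine, had the largest of these, 0.21, and its groups overlapped. Kansl3 measured 91.4, 98.3 and 100.3 CPM in control-labelled and 105.9, 102.7 and 100.6 CPM in mutant-labelled hearts, a narrow separation with a log2 fold change of 0.09. Its adjusted p was 0.45 in edgeR's quasi-likelihood test. It was the 1 gene of the 8 with every mutant-labelled heart above, beside 14.3% of all tested genes.

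Adrm1, the receptor that holds Uchl5 on the proteasome, measured 57.8, 56.1 and 59.3 CPM in control-labelled and 67.3, 63.5 and 69.6 CPM in mutant-labelled hearts. All mutant-labelled hearts lay above the controls, as for 14.3% of all tested genes. The log2 fold change was 0.21 with a standard error of 0.07, an unadjusted p of 0.014 and an adjusted p of 0.17 in edgeR's quasi-likelihood test. Uchl5 itself had a log2 fold change of -0.05.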
